A study of Canis lupus familiaris with 16 samples.

Results

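The collagen genes of the dog were followed by RNA-seq in 16 libraries made from cultured canine hepatocellular carcinoma. Members were all genes whose symbol has the form of a collagen chain (COL, a type number, A and a chain number), with no threshold on level: 43 of 39543 symbols. They came from 4 lines grown out of hepatic tumours of dogs: KU-cHCC-001, the lines numbered 002 and 004 in the same way, and KU-cHCC-005. Cultures were exposed for 24 h to 30 µM sorafenib or to dimethyl sulfoxide (DMSO) as its control, and to 15 µM toceranib or to a buffered saline, DPBS, as its control, with 1 library per line and treatment. Sorafenib and toceranib inhibit receptor tyrosine kinases, and sorafenib also RAF kinases. All cells shared 1 medium, Advanced DMEM with fetal bovine serum and N-acetyl-cysteine, and carry no stated genetic change. Each line is 1 culture per treatment, so a p-value measures the spread between these libraries. By label the replicates of a treatment are the different lines, but the DPBS libraries fell into close pairs, as given below.

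Collagens are secreted or membrane proteins whose chains wind around each other into a helix, built from repeats with glycine at every turn. Fibrillar types such as I, III and V form the fibrils of connective tissue, type IV forms the sheet of basement membranes, type VI forms beaded filaments, and fibril-associated types such as XII and XIV bind to the surface of fibrils. Fibrosis in liver is known for deposits of types I and III made by stellate cells and myofibroblasts, while epithelial cells are known to make basement membrane and adhesion collagens such as types XVII and XVIII.

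Total counts were 12008366 to 21943572 per library. Values are CPM, a count relative to the total of its library, scaled by TMM (trimmed mean of M values), and 3 counts, taken as the floor of a count of 0, correspond to 0.126 to 0.253 CPM. The hepatocyte gene ALB (albumin) reached at most 0.422 CPM in any library, but 2 of the 8 hepatocyte markers measured passed 5 CPM. HNF4A was at 2.64 to 118 CPM, lowest with sorafenib of KU-cHCC-001. APOB was at 0.0843 to 167 CPM, lowest with toceranib of that line. The epithelial adhesion gene EPCAM stood at 205 to 691 CPM. Other epithelial and biliary markers were uneven: in KU-cHCC-001 with DMSO the keratin genes KRT7 and KRT19 were at 285 and 21.1 CPM against 5454 to 7658 and 2631 to 5076 CPM in the other lines, and the cadherin gene CDH1 at 229 against 1477 to 2557 CPM. The DPBS libraries did not stand as 4 separate lines. DPBS 002 and DPBS 005 differed by 2.29 times the squared difference that sampling noise gives, and DPBS 001 and DPBS 004 by 2.48 times, against at least 11.5 times for every other pair of the 16 libraries. These pairs differed by more than noise and were kept as separate values. The line on a DPBS label was not taken as known, except in some alternative fits. These are the fits of all 16 libraries and those of toceranib with the labelled line as a block. The closest library to the DPBS pair 002 and 005 was toceranib of KU-cHCC-005 (11.5 and 14.4), which was also close to toceranib of KU-cHCC-004 (12.5).

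Of the 43 collagen genes, 31 reached 1 CPM in at least 1 library and 24 reached 5 CPM. The 12 that stayed under 1 CPM throughout were COL6A3, COL6A5, COL9A1, COL9A3, COL13A1, COL19A1, COL20A1, COL22A1, COL23A1, COL25A1, COL26A1 and COL28A1, and COL9A1 had 0 counts in all 16 libraries. By class, 11 of 11 fibrillar genes, 6 of 6 basement membrane genes and 3 of 5 genes of beaded filaments reached 1 CPM. Among fibril-associated genes 5 of 10 did, and among transmembrane genes COL17A1 alone did, of 4. Reads of all collagens together took between 0.0719% (DMSO of KU-cHCC-002) and 0.316% (DPBS 005) of the counts.

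Only 5 collagen genes were at 1 CPM or more in all 16 libraries: COL5A2, COL12A1, COL17A1, COL18A1 and COL7A1. COL5A2, a chain of the fibrillar type V, stood at 725, 517, 821 and 910 CPM with DMSO in KU-cHCC-001, 002, 004 and 005. It took 64.3% to 79.3% of collagen counts in 13 libraries, but 32.3%, 36.3% and 9.43% with DMSO, sorafenib and toceranib of KU-cHCC-001. COL17A1, a transmembrane collagen of hemidesmosomes, the junctions that tie epithelial cells to basement membrane, lay at 264, 230, 87.6 and 105 CPM with DMSO in the same order. COL12A1, which coats fibrils, lay at 145, 22.9, 88.4 and 73.8 CPM. Each of these was present in every line, and with DMSO COL12A1 was lowest in KU-cHCC-002.

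**Figure D1:**
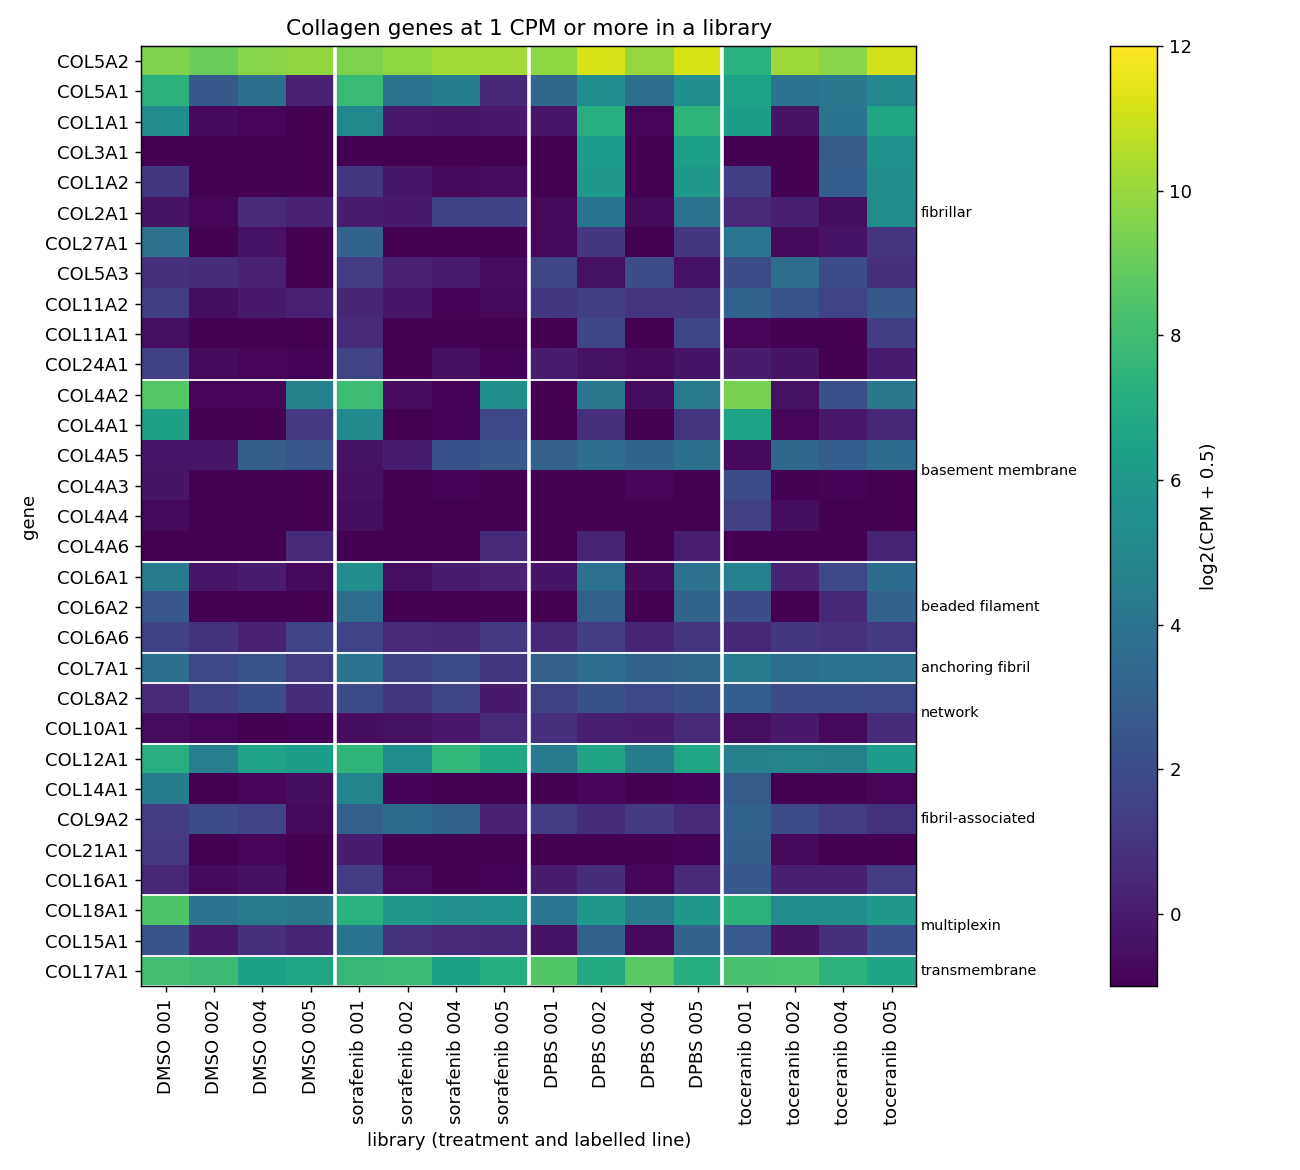
Level of the 31 collagen genes that reached 1 CPM, as log2(CPM + 0.5) by colour, with the 16 libraries in columns by treatment and labelled line and the genes in rows by class. COL5A2 was high in all libraries, the KU-cHCC-001 columns of DMSO, sorafenib and toceranib showed COL4A1 and COL4A2, and COL3A1 was seen in 4 libraries.

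KU-cHCC-001 had more collagen genes at 1 CPM than the other lines with DMSO and sorafenib. With DMSO, 22 collagen genes reached 1 CPM there, against 10 in each of the other lines, and with sorafenib 21 did against 10 to 12. With toceranib it had 23, against 12, 18 and 24 in lines 002, 004 and 005, and the library labelled DPBS 001 had 12 against 23, 11 and 23. Over all genes, 14548 had at least 10 counts in KU-cHCC-001 with DMSO, against 13523 to 13845 in the other lines. With sorafenib 14658 did, against 13471 to 13834. Of the 20 collagen genes at 1 CPM or more in both of these KU-cHCC-001 libraries, 9 were at least 4-fold above every other line in both treatments, on log2(CPM + 0.5). Over all genes at that level 4.74% were (605 of 12758). Both counts took in only genes present in KU-cHCC-001, the line then asked to be high, so nothing is read from the 9 of 20. With 1 line there is no test of its difference from the others, and in a bulk library fewer cells of a kind and less RNA per cell cannot be told apart.

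Markers of cell types differed between the lines as well. With DMSO the 12 epithelial and biliary markers summed to 3557 CPM in KU-cHCC-001 and to 26771 to 34398 CPM in the other lines, and all 12 were at 1 CPM or more there. The 10 smooth muscle and pericyte markers summed to 147 CPM against 18.2 to 30.2 CPM, of which DES, the muscle filament gene desmin, made 135 CPM against at most 0.0563 CPM. The 16 fibroblast markers summed to 416 CPM against 439 to 1029 CPM, of which S100A4 made 312 CPM against 97.1 to 333 CPM. THY1 was at 15.0 against 0 CPM and PDGFRA at 59.9 against 2.21 to 9.52 CPM, but FBLN1 at 20.6 against 297 to 474 CPM. TWIST1, counted here among regulators of collagen transcription, was at 10.8 CPM against 0 in the other lines. The part of these markers in the collagen difference was not tested.

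The 9 comprised fibrillar, basement membrane, beaded filament and fibril-associated genes. COL4A1 and COL4A2, whose chains together form the common type IV collagen and whose genes are neighbours in the RefSeq table, stood highest in this line. COL4A2 was at 380, 237 and 649 CPM with DMSO, sorafenib and toceranib of KU-cHCC-001, and COL4A1 at 86.7, 37.2 and 92.0 CPM. In KU-cHCC-005 COL4A2 was at 25.1, 43.2 and 17.2 CPM and COL4A1 at 1.76, 3.06 and 0.927 CPM. With DMSO and sorafenib of KU-cHCC-002 and KU-cHCC-004, COL4A2 was at 0.0530 to 0.150 CPM, at or under the floor. With toceranib COL4A2 was at 0.240 CPM in KU-cHCC-002 but at 4.01 CPM (73 counts) in KU-cHCC-004. The pair was thus highest in KU-cHCC-001 and next in KU-cHCC-005 under these treatments, and KU-cHCC-004 was near the floor with DMSO and sorafenib but not with toceranib. Their counts stood in a ratio (COL4A1 to COL4A2) of 0.228, 0.157 and 0.142 in the libraries of KU-cHCC-001 and of 0.0703 and 0.0709 with DMSO and sorafenib of KU-cHCC-005.

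COL5A1, the other main chain gene of type V, was at 164 and 222 CPM with DMSO and sorafenib of KU-cHCC-001 against 0.662 to 22.1 CPM elsewhere in those treatments. Its partner chain COL5A2 was not higher there, at 725 and 689 CPM against 517 to 1190.0 CPM. The fibril-associated COL14A1 was at 21.4, 28.1 and 6.53 CPM with DMSO, sorafenib and toceranib of KU-cHCC-001, whereas the 13 remaining libraries had at most 0.165 CPM. COL27A1, a fibrillar gene known from cartilage, was at 14.3, 8.14 and 16.6 CPM in those libraries and at most 1.56 CPM in the others. COL6A1 (20.6 and 41.4 CPM with DMSO and sorafenib) and COL6A2 (5.21 and 12.1 CPM) were at most 0.727 CPM and 0 CPM in the same treatments of the other lines. COL6A3, the gene of the third chain of the common type VI, had 0.130 CPM in sorafenib of KU-cHCC-001 and 0 in the 15 other libraries. COL24A1, a minor fibrillar gene, completed the 9 with 2.47 and 2.64 CPM against at most 0.212 CPM.

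COL18A1, whose product is a basement membrane collagen and the source of endostatin, met the 4-fold mark with DMSO (339 CPM against 14.7 to 19.5) but not with sorafenib (155 against 47.1 to 64.4 CPM). When the toceranib libraries also had to meet the mark, 4 of the 9 remained, namely COL4A1, COL4A2, COL14A1 and COL27A1. The share over all genes under this stricter rule is not given here, so nothing is read from the 4 of 9. COL1A1, COL5A1, COL6A1, COL6A2 and COL24A1 dropped out, and the first 4 of these reached 105, 31.4, 11.6 and 8.01 CPM when KU-cHCC-005 was given toceranib. None of the KU-cHCC-001 genes kept its level in the library labelled DPBS 001, in which COL4A1, COL4A2, COL6A2 and COL14A1 were at 0 CPM. The epithelial and biliary markers summed to 19521 CPM there, against 2208 to 5937 CPM in the other libraries labelled KU-cHCC-001. The smooth muscle and pericyte markers summed to 53.5 against 60.7 to 147 CPM, and the fibroblast markers to 421 against 168 to 612 CPM. Whether DPBS 001 came from that line was not tested.

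**Figure D2:**
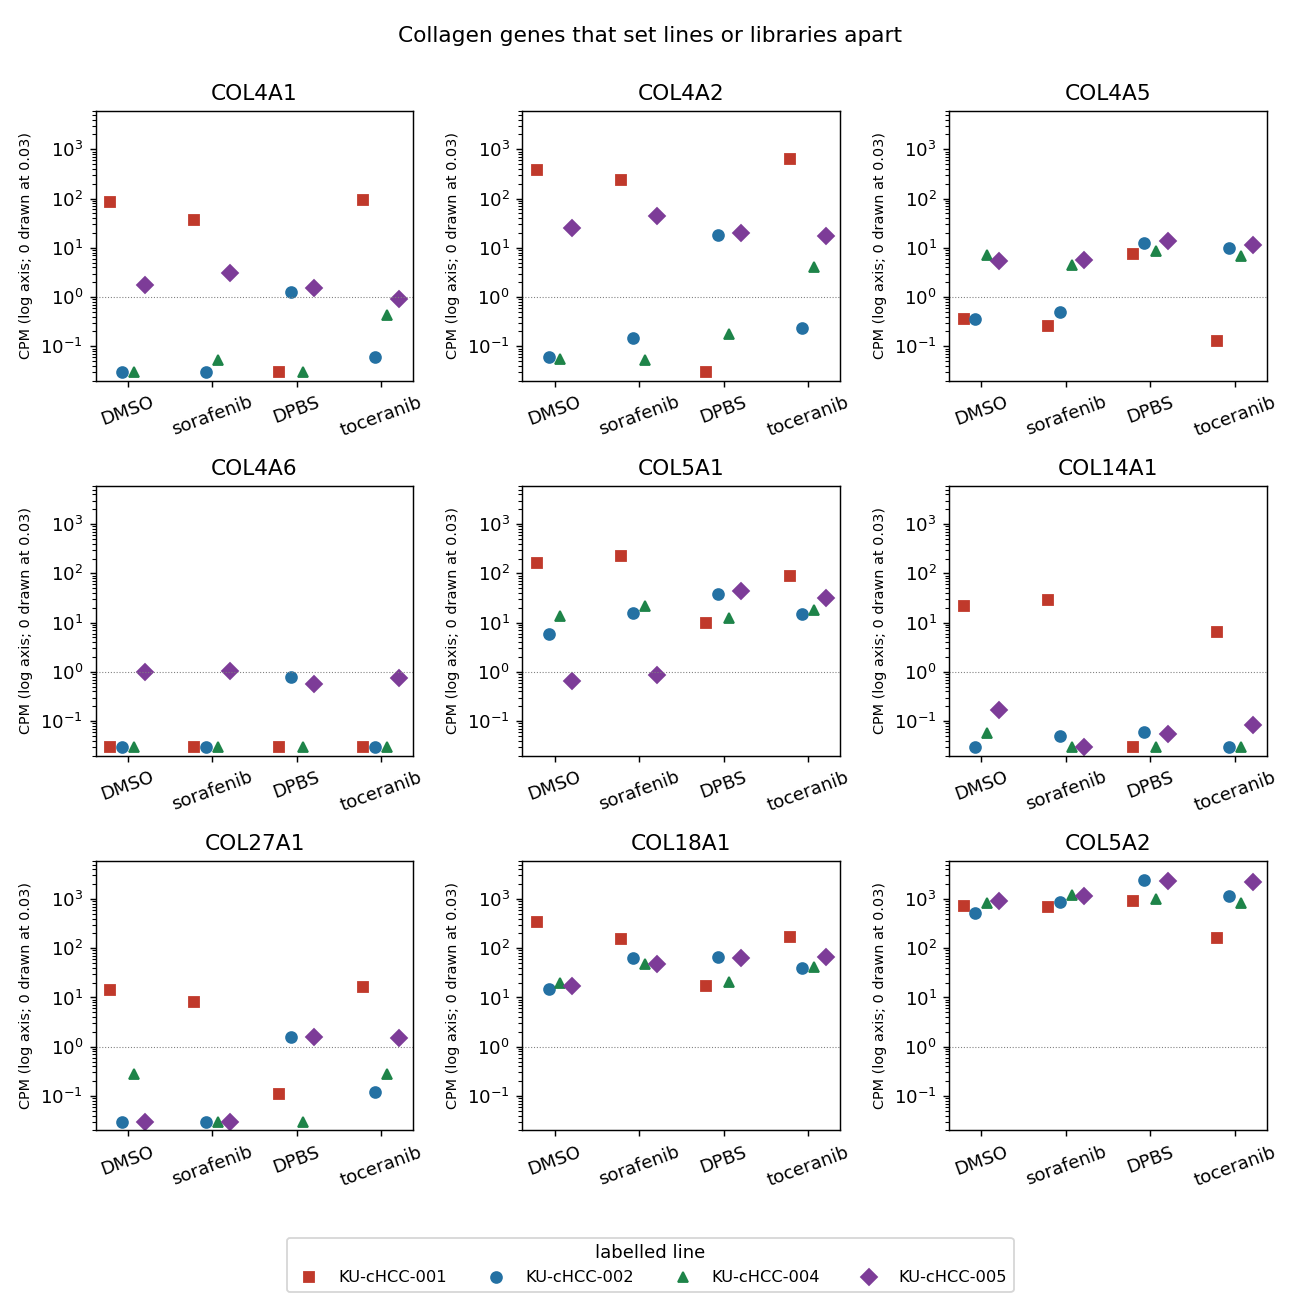
CPM of 9 collagen genes on a log axis by treatment, 1 point per library, with colour and shape for the labelled line, 0 drawn at 0.03 and a dotted line at 1 CPM. COL4A1, COL4A2, COL14A1 and COL27A1 were highest in KU-cHCC-001 under each treatment but DPBS, and COL4A6 was above 0 in 5 libraries.

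The other basement membrane genes followed different lines, and were chosen here after their values were seen. COL4A5, which encodes a type IV chain known from the kidney filter, was at 7.10 and 5.29 CPM with DMSO of KU-cHCC-004 and KU-cHCC-005, and at 0.361 and 0.360 CPM with DMSO of KU-cHCC-001 and KU-cHCC-002. With sorafenib the 4 lines lay in the same 2 groups, at 4.395 and 5.66 CPM against 0.260 and 0.501 CPM. With toceranib KU-cHCC-001 was again low at 0.126 CPM, but KU-cHCC-002 stood at 9.73 CPM, among the 6.87 and 11.3 CPM of KU-cHCC-004 and KU-cHCC-005. COL4A6, its neighbour in the RefSeq table, had 18 and 20 counts with DMSO and sorafenib of KU-cHCC-005, 9 with toceranib of that line, 13 and 10 in DPBS 002 and 005, and 0 in the 11 other libraries. COL4A3 and COL4A4, also neighbours, exceeded 1 CPM in 1 library each, toceranib of KU-cHCC-001 (3.25 and 2.23 CPM).

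Fibrillar collagens of connective tissue set apart some DPBS and toceranib libraries. COL3A1, the gene of type III collagen, had 0 counts in all 8 DMSO and sorafenib libraries, in DPBS 001 and 004, and with toceranib of KU-cHCC-001 and KU-cHCC-002. It had 1224 and 1448 counts in DPBS 002 and 005 (72.7 and 80.5 CPM), 610 with toceranib of KU-cHCC-005 (51.4 CPM) and 120 with toceranib of KU-cHCC-004 (6.60 CPM). Against the floor of 3 counts per library (0.180 CPM at the most among the 12 libraries at 0), these 4 were at least 404-fold, 447-fold, 286-fold and 36.6-fold higher. COL3A1 was the only collagen gene, of 24 that reached 5 CPM in a DPBS or toceranib library, to stay under 1 CPM in all DMSO and sorafenib libraries. Over all genes 0.329% did so (40 of 12170).

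The type I genes went with COL3A1 in these 4 libraries. COL1A1 stood at 149, 175, 105 and 16.2 CPM in DPBS 002, DPBS 005 and toceranib of lines 005 and 004, and COL1A2 at 62.0, 63.9, 42.4 and 6.98 CPM. The ratio of COL1A2 to COL1A1 counts was 0.417, 0.365, 0.404 and 0.432 there. The ratio of COL3A1 to COL1A1 counts was 0.490, 0.459, 0.490 and 0.408. The proportions of the 3 genes were thus close in libraries whose COL1A1 level lay between 16.2 and 175 CPM.

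COL1A1 of KU-cHCC-001 did not come with these partners. With DMSO, sorafenib and toceranib that line had COL1A1 at 40.7, 33.0 and 75.3 CPM, but COL1A2 at 1.65, 1.56 and 2.19 CPM and COL3A1 at 0. The count ratio of COL1A2 to COL1A1 was 0.0406, 0.0472 and 0.0291. As a share of type I counts, COL1A2 held 3.90% (95% exact binomial interval 2.68% to 5.46%), 4.51% (3.18% to 6.19%) and 2.83% (2.12% to 3.69%) in KU-cHCC-001. It held 29.4% (27.9% to 31.0%) in DPBS 002, 26.7% (25.4% to 28.1%) in DPBS 005, 28.8% (26.7% to 31.0%) and 30.2% (25.8% to 34.8%) with toceranib of lines 005 and 004. The intervals of KU-cHCC-001 and of these 4 libraries do not overlap, and they cover counting error only.

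The DPBS pairs were then set side by side as a description, since the pairs, the direction and the level required in DPBS 002 and 005 were all chosen after the values were seen. Of 15 collagen genes at 5 CPM or more in both DPBS 002 and 005, 9 were at least 4-fold higher there than in both DPBS 001 and 004: COL1A1, COL1A2, COL2A1, COL3A1, COL4A2, COL6A1, COL6A2, COL12A1 and COL15A1. The share over all such genes was 1.23% (128 of 10446), and nothing is read from the count. COL2A1, the cartilage collagen, stood at 16.1 and 15.1 CPM in that pair and 40.0 CPM with toceranib of KU-cHCC-005, but at 0.165 CPM with toceranib of KU-cHCC-004, where COL1A1 was detected. COL17A1 ran the other way, at 117 and 135 CPM in DPBS 002 and 005 against 351 and 414 CPM in DPBS 001 and 004. COL5A2 was at 2397 and 2347 CPM in the first pair, 895 and 976 CPM in the second, and 2208 CPM with toceranib of KU-cHCC-005. COL3A1 and COL5A2 are neighbours in the RefSeq table, and COL5A2, unlike COL3A1, was present in all 16 libraries.

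**Figure D3:**
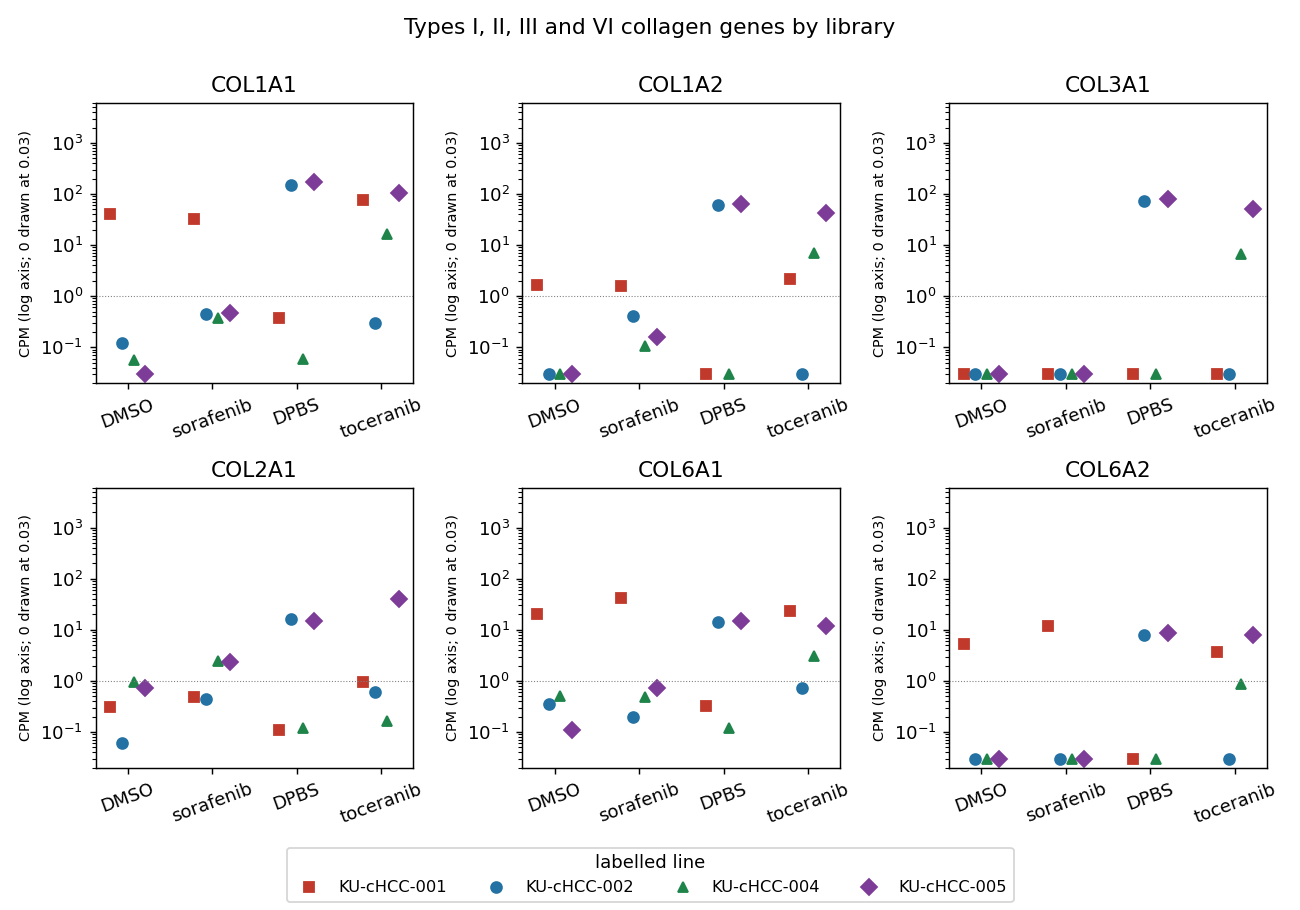
CPM of COL1A1, COL1A2, COL3A1, COL2A1, COL6A1 and COL6A2 on a log axis by treatment, 1 point per library, with colour and shape for the labelled line, 0 drawn at 0.03 and a dotted line at 1 CPM. COL1A2 and COL3A1 were above 5 CPM in DPBS 002, DPBS 005 and toceranib of KU-cHCC-004 and KU-cHCC-005, whereas COL1A1 was also above 5 CPM in KU-cHCC-001.

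Genes of matrix and contractile proteins were among those with profiles most like COL3A1. The 6 genes outside the collagens with the most similar profile over the 16 libraries (Pearson r of log2(CPM + 0.5), 12662 genes compared) were TNC (0.997), ACTG2 (0.994), SFRP2 (0.981), TPM2 (0.978), LAMA4 (0.973) and ACTA2 (0.973). TNC encodes a matrix glycoprotein, LAMA4 a laminin chain, SFRP2 a secreted Wnt modulator, and ACTG2, TPM2 and ACTA2 contractile proteins of smooth muscle. Of 16 fibroblast and myofibroblast markers, 9 reached 1 CPM in each of DPBS 002 and 005 and 8 with toceranib of KU-cHCC-005, against 4 to 7 in the 13 others. Their summed level was 1238, 1302 and 1311 CPM in those 3 libraries and 1000.0 CPM with toceranib of KU-cHCC-004. It was 421 and 457 CPM in DPBS 001 and 004, 416 to 1029 CPM with DMSO and 168 to 557 CPM with sorafenib, and it was carried by few genes. FBLN1, a matrix glycoprotein gene, made 553 CPM and TAGLN, of contractile cells, 545 CPM in DPBS 002, and FBLN1 made 649 CPM with toceranib of KU-cHCC-004. FBLN1 was at 297 CPM or more in the DMSO and sorafenib libraries of lines 002, 004 and 005, where COL3A1 was at 0. S100A4 ran the other way, at 31.3 and 31.8 CPM in DPBS 002 and 005 against 78.5 and 71.2 CPM in DPBS 001 and 004. DCN and LUM, small proteoglycans of fibrils, were at 0 in all DMSO and sorafenib libraries and at 15.6 to 25.5 CPM in DPBS 002, DPBS 005 and toceranib of KU-cHCC-005. POSTN was at 0 in all 16 libraries and FAP in 15. Of 10 smooth muscle and pericyte markers, 8 reached 1 CPM in each of these 3 libraries against 2 to 5 in the others. Their sum was 73.5, 77.3 and 72.2 CPM there, below the 147 CPM with DMSO of KU-cHCC-001, and NOTCH3 of that list was at 35.8 and 39.0 CPM in DPBS 002 and 005 against 46.6 and 49.8 CPM in DPBS 001 and 004. Whether fibroblasts or smooth muscle cells were present, and their part in the collagen levels, was not tested.

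Sorafenib against DMSO, in the 8 libraries of those treatments with the line as a block, tested 15 collagen genes; the other 28 had too few reads in these libraries. edgeR called 4 higher and 0 lower at an adjusted p under 0.05, while 18.3% of all 13821 genes were called higher and 36.6% in either direction. The 4 of 15 are given as a description beside that background. The median log2 fold change was 0.05 over the 15 and -0.02 over all genes tested. COL1A1, COL14A1, COL27A1, COL6A1 and COL6A2, detected mainly in KU-cHCC-001, were not tested.

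COL9A2, the gene of a type IX chain that sits on fibrils, was at 2.01, 3.48, 2.59 and 0.110 CPM with DMSO in KU-cHCC-001, 002, 004 and 005 and at 7.36, 11.1, 7.84 and 0.675 CPM with sorafenib. It rose by 1.75 ± 0.25 on the log2 scale (± SE, adjusted p = 0.00191 by edgeR), and each line was higher with sorafenib. KU-cHCC-005 was the lowest of the lines in both treatments.

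COL2A1 went from 0.309, 0.0600, 0.958 and 0.717 CPM to 0.476, 0.451, 2.49 and 2.39 CPM, a rise of 1.44 ± 0.39 (edgeR adjusted p = 0.0219) at a level under 1 CPM with DMSO. COL12A1 went from 145, 22.9, 88.4 and 73.8 CPM to 180, 39.5, 198 and 111 CPM, a rise of 0.67 ± 0.15 (edgeR adjusted p = 0.00917). COL5A1 went from 164, 6.00, 13.5 and 0.662 CPM to 222, 15.5, 22.1 and 0.883 CPM, a rise of 0.74 ± 0.18 (edgeR adjusted p = 0.0153). All 3 were higher with sorafenib in 4 of 4 lines, and their treatment groups overlapped because the lines differed more than the treatments.

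The number of calls differed with the libraries in the fit, for all genes as for collagens. With all 16 libraries, blocked by the labelled line of the DPBS libraries too, 0 of 27 tested collagen genes and 13.1% of all genes were called. With 12 libraries (no DPBS) COL9A2 alone of 22 was called, and 19.6% of all genes. Without KU-cHCC-002 edgeR called COL9A2 higher and COL11A2 lower, and 17.8% of all genes, and without KU-cHCC-004 it called COL9A2 and COL12A1, and 21.9% of all genes. In the 16-library fit the log2 fold changes were 1.72 for COL9A2, 1.35 for COL2A1, 0.71 for COL5A1 and 0.70 for COL12A1, close to those above.

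COL18A1 and the type IV genes went in opposite directions in different lines. COL18A1 went from 339 to 155 CPM in KU-cHCC-001, but from 14.7 to 64.4 CPM in KU-cHCC-002, 19.5 to 47.1 CPM in KU-cHCC-004 and 17.4 to 48.6 CPM in KU-cHCC-005. Over the 4 lines it was not called (0.93 ± 0.47, edgeR adjusted p = 0.154), while without KU-cHCC-001 it was (1.60 ± 0.18, edgeR adjusted p = 1.38e-04). That fit leaves out the line that went the other way, and it called 42.5% of all genes. With line 002, 004 or 005 left out instead, COL18A1 was not called (edgeR adjusted p = 0.490, 0.359 and 0.372). COL4A1 and COL4A2 likewise went down in KU-cHCC-001, by 1.21 and 0.68 on the log2 scale, and stood higher with sorafenib in KU-cHCC-005, by 0.65 and 0.77; neither was called. With 1 library per line and treatment, the difference between lines was not tested. COL5A2 was at 0.36 ± 0.15 (edgeR adjusted p = 0.0823), higher in 3 of 4 lines. COL17A1 was at -0.08 ± 0.14 and COL7A1, the gene of the anchoring fibrils below epithelium, at -0.23 ± 0.22 (edgeR adjusted p = 0.701 and 0.450).

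**Figure D4:**
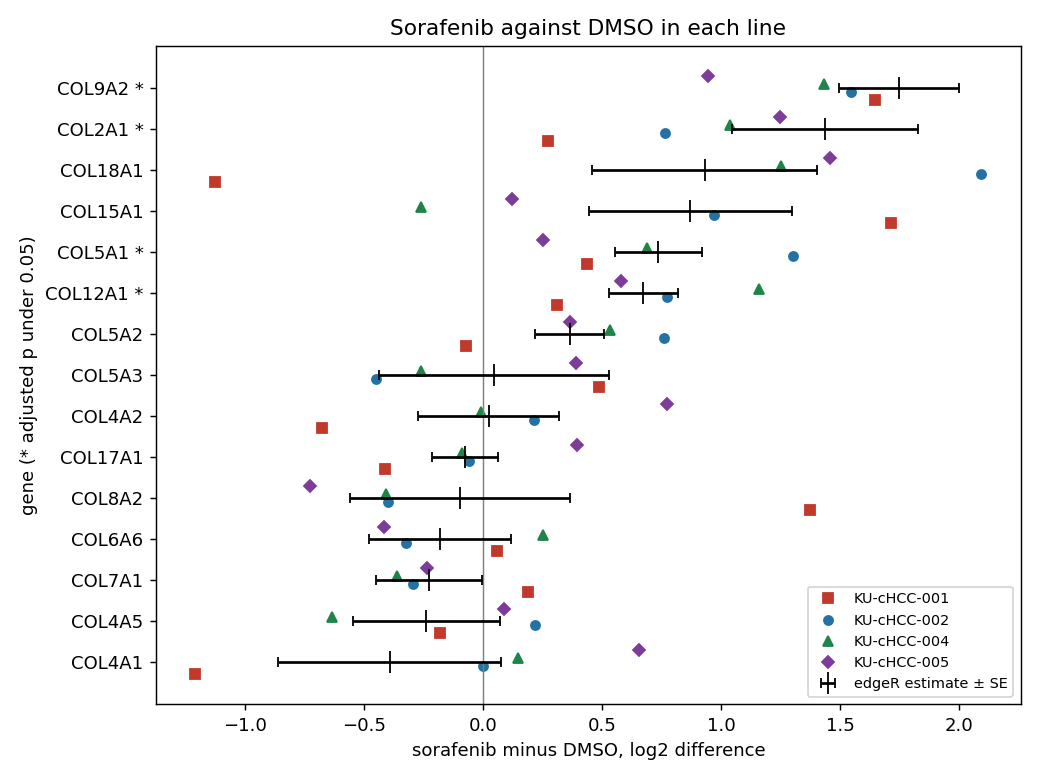
Sorafenib minus DMSO for the 15 collagen genes tested, on the log2 scale. Points are the differences of log2(CPM + 0.5) in each line, and bars give the edgeR estimate ± SE, which uses counts without that offset and so lies further from 0 for genes at low counts. COL9A2, COL2A1, COL5A1 and COL12A1, marked with a star, have all 4 lines to the right of 0, and COL18A1 has KU-cHCC-001 alone to the left.

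Genes that fold, modify and export collagen chains were followed in the same sorafenib fit, with the background shares given above. Of 16 tested genes of collagen folding and modification, 9 rose and 1 fell, with a median log2 fold change of 0.49. FKBP14, a prolyl isomerase of the endoplasmic reticulum, went from 7.11, 4.62, 4.79 and 8.88 CPM to 16.6, 18.7, 17.7 and 33.8 CPM (1.73 ± 0.19, edgeR adjusted p = 8.06e-04), with no overlap between the treatments. The prolyl hydroxylase subunits P4HA3 (1.18), P4HA1 (0.98) and P4HB (0.72) and the isomerase gene FKBP10 (0.85) rose as well. P3H2, a prolyl hydroxylase for basement membrane collagen, fell (-1.02 ± 0.30, edgeR adjusted p = 0.0305), from 124 to 43.0 CPM in KU-cHCC-001. It went from 3.48 to 2.56 CPM in KU-cHCC-002 and from 6.29 to 2.03 CPM in KU-cHCC-005, but from 1.30 to 1.54 CPM in KU-cHCC-004. SERPINH1, the collagen chaperone, which was chosen after its value was seen, rose by 0.47 ± 0.10 (edgeR adjusted p = 0.00971). P4HB and several others of the list also act on proteins that are not collagens.

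Of 14 genes of procollagen export and processing, 5 rose and 0 fell, with a median of 0.43. PCOLCE2, an enhancer of procollagen cleavage (1.82 ± 0.28, edgeR adjusted p = 0.00246), the vesicle coat genes SEC23A (1.19) and SEC24D (1.07), KLHL12 (0.70), which enlarges such vesicles, and the export receptor MIA3 (0.37) made up the 5. Of 7 collagen receptor genes the integrin chains ITGA10 (1.41), ITGA1 (0.77), ITGA2 (0.49) and ITGB1 (0.43) rose. ITGA10 was at a low level, 0.300 to 0.773 CPM with DMSO and 0.900 to 2.21 CPM with sorafenib. In the fit of all 16 libraries the counts called higher for folding, export and receptor genes were 3 of 17, 4 of 14 and 0 of 7. Without KU-cHCC-002 they were 4 of 17, 4 of 14 and 0 of 7. No gene of 6 tested fibril partners, such as SPARC and FN1, was called, with a median of -0.08. Of 16 regulators of collagen transcription, 3 rose, among them PRRX1 (2.41) and CEBPB (0.97), and 4 fell, namely TGFB3 (-1.59), CCN2 (-0.95), TGFBR2 (-0.87) and RFX5 (-0.83), with a median of -0.11. Among cell type markers in the same fit, 7 of 12 epithelial and biliary genes fell and 0 rose, 1 of 5 fibroblast genes rose (PRRX1) and 1 fell (S100A4), 1 of 3 smooth muscle and pericyte genes rose (MCAM), 2 of 2 hepatocyte genes and 1 of 2 leukocyte genes fell, and 0 of 3 endothelial genes were called. The part of these markers in the result was not tested.

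Toceranib against DPBS had 24 collagen genes with enough reads, and edgeR called none of them, in a fit without the labelled line. This fit, the DESeq2 run and the comparison of non-overlapping libraries took each DPBS library as separate, although they stood in close pairs. At an unadjusted p under 0.05 there were 2 of 24, against 12.2% of all 14588 genes, and edgeR called 0.00685% of all genes, 1 gene. DESeq2 called 1 collagen gene, COL11A2, and 3.04% of all genes (410 of 13466). The 2 genes, named after their values were seen, were COL11A2 and COL7A1, also the only collagens whose toceranib libraries all lay above all DPBS libraries, as 3.96% of all genes did, while 0 of the 24 lay below, as 5.74% of all genes did.

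COL11A2, a minor fibrillar chain, was at 1.66, 2.14, 1.48 and 1.61 CPM in DPBS 001, 002, 004 and 005 and at 7.71, 4.74, 2.53 and 5.73 CPM with toceranib in the same order (1.60 ± 0.38, edgeR adjusted p = 0.212). With DMSO it was at 0.180 to 2.16 CPM. COL7A1 was at 7.34, 12.4, 8.23 and 9.50 CPM in the DPBS libraries and 19.7, 13.4, 15.5 and 13.9 CPM with toceranib (0.75 ± 0.23, edgeR adjusted p = 0.292). Both missed the threshold. With the close DPBS pairs each summed to 1 library, COL11A2 was at 1.58 ± 0.57 (edgeR adjusted p = 0.999). Fold changes of COL1A1 (-0.71 ± 1.83), COL1A2 (-1.29 ± 1.99) and COL3A1 (-1.40 ± 2.20) had errors larger than themselves, with high and low libraries in both groups.

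Toceranib of KU-cHCC-001 stood apart from the DMSO library of that line in several collagens, picked after their values were seen and with no replicate. COL5A2 was at 159 CPM against 725 CPM, and COL12A1 at 24.7 against 145 CPM. COL21A1 (7.17 against 1.75 CPM) and COL16A1 (5.56 against 0.876 CPM), both fibril-associated, and COL8A2 (6.91 against 1.03 CPM), a network-forming collagen known from cornea, were higher, each above its level in every other library. In this library the endothelial markers summed to 281 CPM and the leukocyte markers to 333 CPM, against 5.98 to 132 CPM and 13.4 to 85.1 CPM in the 15 others. Each sum was mostly 1 gene: EGFL7, which was also at 126 CPM with DMSO of that line, made 253 CPM, and CD74 made 320 CPM. PECAM1, at 13.3 CPM there, was at most 0.260 CPM elsewhere. KDR was at 10.1 CPM there, and at 5.10 and 6.28 CPM with DMSO and sorafenib of that line. In the remaining libraries KDR was at most 0.480 CPM. VWF was at 2.78 CPM there and at 2.86 CPM with sorafenib of that line. In the toceranib library TEK, TIE1, EMCN, PTPRC, CD3E, MS4A1, TYROBP and LAPTM5 were at 0 and CDH5 at 0.0421 CPM. The part of these markers in the collagen levels was not tested.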

How the data were processed

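The deposited files hold raw counts of reads per gene symbol, 1 file per library and 39954 entries per file. The submitters' processing notes name TopHat; for genome build, annotation and counting tool, nothing is stated in the sources used here. Entries sharing a symbol (500 entries, 89 symbols) were summed, and no collagen gene was among them. Names and neighbour relations came from RefSeq (assembly UU_Cfam_GSD_1.0), in which 37336 symbols and all 43 members matched. COL6A4 and COL8A1 were not analysed here.

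The members, gene lists and tests were chosen with earlier results of these data known. CPM used TMM factors over the 16 libraries, and log2 values used CPM + 0.5. Tests used edgeR 4.0.16 (quasi-likelihood, filterByExpr, Benjamini-Hochberg over all genes tested, threshold 0.05) in R 4.3.3, with DESeq2 1.42.0 as an alternative, and the fits were tested on simulated data. Sorafenib against DMSO used the line as a block, since same-line libraries deviated together (r = 0.887, 0.831, 0.753 and 0.799). Toceranib against DPBS used no block, because r for the same labels was 0.031, -0.498, -0.057 and 0.543. Collagens were given per library if called, if they met the rule on KU-cHCC-001 or on DPBS and toceranib, or if among the 10 of highest CPM; list genes were named if called, at most 6 per list by size. Genes with overlapping or antisense partners may share reads, since strand use in counting is not given. Intervals and floors cover counting error only. Alternatives covered normalization, filtering, tool, libraries fitted and each line left out.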

Additional observations from a re-analysis of the deposited data

Results flagged for a closer look

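In 68 groups of 4 libraries (17 collagen genes in 4 treatments), 16 had a library far from the other 3 on the log2 scale. For COL1A2 and COL6A2 with DMSO, and COL6A2 and COL27A1 with sorafenib, the other 3 libraries were all at 0. The measure, the gap over the range, is then 1 at any distance. Chance gives about 1 in 20 such groups for values without such ties. The 17 genes also include 9 chosen for being higher in KU-cHCC-001 with DMSO and sorafenib. The number of flags is thus a description and is not set against chance.

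KU-cHCC-001 was the high library in 14 of these, and 12 of the 14 are on those 9 genes, as their choice makes likely. With DMSO it stood at 339 CPM for COL18A1 (others 14.7 to 19.5), 40.7 for COL1A1 (at most 0.120), 21.4 for COL14A1 (at most 0.165), 20.6 for COL6A1 (at most 0.507), 14.3 for COL27A1 (at most 0.282), 5.21 for COL6A2 (others 0), 2.47 for COL24A1 (at most 0.120) and 1.65 for COL1A2 (others 0). With sorafenib it stood at 41.4 CPM for COL6A1 (at most 0.727), 33.0 for COL1A1 (at most 0.467), 28.1 for COL14A1 (at most 0.0501), 12.1 for COL6A2 (others 0) and 8.14 for COL27A1 (others 0). With toceranib COL14A1 was at 6.53 CPM (at most 0.0843).

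The other flags were COL12A1 with toceranib of KU-cHCC-005, at 72.4 CPM against 24.7 to 27.3, and COL9A2 with sorafenib of KU-cHCC-005, at 0.675 CPM against 7.36 to 11.1.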

How the results depend on the processing

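Of the recomputed values, 116 kept direction and side of the threshold or stayed within 1.5 times, 17 lost significance, 4 gained it, 18 counts moved and 1 reversed. The 4 collagens called with sorafenib became 0 without the replicate block, where 0.514% of all genes were called (71), and 0 with 16 libraries (13.1% of all genes). They became 1 with 12 libraries without DPBS (19.6% of all genes), and 2 to 6 when each line was left out. Without line 001, 002, 004 or 005, 42.5%, 17.8%, 21.9% and 21.5% of all genes were called. The list counts that follow come from the same fits and stand beside the same shares. Folding and modification genes called higher (9) became 0 without the block, 3 with 16 libraries and 4 to 10 with a line left out. Export genes (5) became 0 without the block and were 4 to 7 with a line left out. Receptor genes (4) became 0 without the block, 0 with 16 and 0 with 12 libraries, and 0 to 4 with a line left out. COL18A1 reversed to -0.38 without the block. The cause of these moves was not tested. Toceranib against DPBS stayed at 0 collagens called in each edgeR alternative, the replicate block by labelled line included, and DESeq2 called 1. Requiring toceranib libraries too left 4 of the 9 KU-cHCC-001 genes. A mark of at least 2 CPM in place of 5 gave 4 genes (COL3A1, COL4A3, COL4A4 and COL11A1) in place of 1. The counts under these changed rules have no share over all genes beside them and are a description. Genes at fewer than 3 counts cannot be told from 0 at this depth.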
